A study of Homo sapiens with 42 samples.

Results

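Of 1817250 positions listed as changed in at least 1 of 10 single HEK293T cells, 17669 were listed in all 10. These positions, called core sites here, were chosen by that presence alone, so their number and their rates in the cells are given as a description without a test. They lay under 1471 gene names, of which 1386 were protein coding in RefSeq, and 746 of them stood under several gene names. The cells were sorted for GFP and carried NES_TadA-8e_GFP, an adenosine deaminase fused to a nuclear export signal and expressed transiently from a plasmid. The values set beside them came from bulk poly(A) libraries, 2 for each construct: NES, NLS (a nuclear localisation signal) and ERM in HEK293T, a human embryonic kidney line with the SV40 T-antigen, and NES and NLS in K562, a leukaemia line. ERM is given as the labels write it. All of these lines were of WT genotype, all constructs carried GFP, transfer was by lipofection in HEK293T and by electroporation in K562, and the GFP controls were not analysed here. No culture is named for the cells, so they count as 1 sample, and p-values for the bulk libraries measure only the spread between libraries, which may be technical.

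TadA-8e is a laboratory-evolved bacterial tRNA adenosine deaminase that turns adenosine into inosine on single-stranded nucleic acid. Inosine is read as guanosine during sequencing, so a deaminated adenosine appears as an A-to-G change, and the signal peptide decides which RNAs the enzyme can meet in the cell. The rate used throughout is the share of changed reads at a site, in percent. No read count stands beside it, so the depth behind a rate is unknown and no interval can be given for a single cell.

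Sequence was at hand for 138 core sites that fall in the windows around RefSeq gene starts (GRCh38.p14), and the reference base was A at all 138. In 119 of them, with 10 bases on both sides, U stood before the site in 29.4% (Wilson 95% interval 21.97 to 38.1%), G in 29.4%, C in 28.6% and A in 12.6%. U stood before 11.2% of 10545 adenosines in the leading 40 bases of genes with a core site, 40.02% of 2976 bulk NES sites in the same windows, and 32.2% of the 1651 bulk NES sites in genes with a core site. The 11.2% covers a smaller region than the other shares: 87 of the 119 core sites lay in those leading 40 bases. In these windows, places are counted from the start a window is built on. For DNAJB1 that start lies inside the RefSeq bounds of the gene. The intervals cover counting error only, and sites of 1 gene share a transcript. For each gene in these windows, the core site with the highest mean over the cells was taken among those with a bulk NES rate. Some chromosomes and genes with LOC names were left out. The following sequences are the 4 highest and the 4 lowest of these, with the site in capitals, so the low ones are not the lowest of all core sites. They show which bases surround a strongly and a weakly changed adenosine.
HACD3: accgcgagctAtatctgcgcg
DNAJB1: tcggcggcggAgccgggggac
ALDOA: ttccgaggctAaatcggctgc
TUBA1B: ctcgactcttAgcttgtcggg
RPL36: ccgtctctggAgagcagcagg
RPS14: tccggtgtggAgtctggagac
TCP1: tcgctcgggtAcgctccacgc
HSPA1B: ggccagcctgAggagctgctg

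The HACD3 site at chr15:65530688 (plus strand) lay before the start its window is built on. It had a mean of 82.9% ± 19.6 (SD over 10 cells, lowest 42.6%, highest 99.8%). In bulk it was at 63.0 and 64.1% with NES, 28.0 and 27.9% with NLS and 51.8 and 51.7% with ERM. The DNAJB1 site at chr19:14518395 (minus strand), at place 3 from the start of its window, was between 45.6 and 69.9% in the cells. It was only at 8.93 and 9.07% in the NES libraries and was listed with neither NLS nor ERM. The ALDOA site (chr16:30065791) ranged from 11.1 to 97.6% and the TUBA1B site (chr12:49131371) from 9.63 to 81.8% over the cells. HACD3, ALDOA and TUBA1B, 3 of the 4 high sites, have U before the site, and DNAJB1 has G.

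Of the 4 low sites, RPL36 (chr19:5690318), RPS14 (chr5:150449722) and HSPA1B (chr6:31827752) have G before the site, and TCP1 has U. The TCP1 site (chr6:159789576, minus strand) had 1.99% ± 0.852 over the cells, 2.91 and 3.05% with NES and 10.0 and 9.75% with NLS. In bulk NES libraries, core sites in these windows with U before them had a median of 16.8%, those with C 10.3%, with A 7.22% and with G 3.65%. At the same sites, the medians of the mean over cells were 15.8% after U, 10.2% after C, 14.6% after A and 4.02% after G. With the core sites that the bulk table does not list, they were 15.8, 10.9, 16.3 and 13.5%.

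A stretch with several core sites is shown because its adenosines with and without a core site lie side by side. It is part of the MIR1244-1 hairpin inside PTMA, the mRNA of prothymosin alpha, at chr2:231713346-231713375 (plus strand), with core sites in capitals. Near-identical copies of PTMA exist elsewhere in the genome, so its reads could be split.
MIR1244-1: uguauguAcuuAgcuguAcuAuAaguaguu
Of its 8 adenosines, 5 were core sites, and the hairpin held 6 core sites in all, each with U before it. The other adenosines of the stretch also had U before them, except the adenosine right after the last core site. Mean rates of the 6 core sites over the cells ran from 5.74% ± 4.47 to 16.7% ± 12.5 (SD, 10 cells). The last one in the stretch (position 231713368) was at 13.5 and 16.1% with NES, 4.49 and 4.75% with NLS and 12.2 and 13.0% with ERM.

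Few core sites right at the start a sequence window is built on were in the bulk table. Of 24 core sites in base 1 to 10 from it, 7 were listed in the bulk NES table. From base 11 to 40, 53 of 63 were listed. Median rates over the cells were 17.2% in the former and 8.53% in the latter. The cells and the bulk libraries were made with different kits, a full-length SMART-Seq kit and a stranded mRNA kit, per the labels' protocols, and the part of this in the result was not tested.

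Core sites were 0.972% of all positions listed in any cell. Another 14947 positions, listed in 9 cells, lie just outside the rule. Their median rate was 10.4%, against 11.5% for core sites, and 88.4% of them were listed in bulk HEK293T NES, against 91.0% (16080) of core sites. The share listed in bulk NES was 18.1% for positions of a single cell. Listing in a cell depends on depth and on the RNA being present: the cells held between 146445 (cell 3) and 551317 (cell 9) positions, and without cell 3 the core would be 23786 positions.

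**Figure D1:**
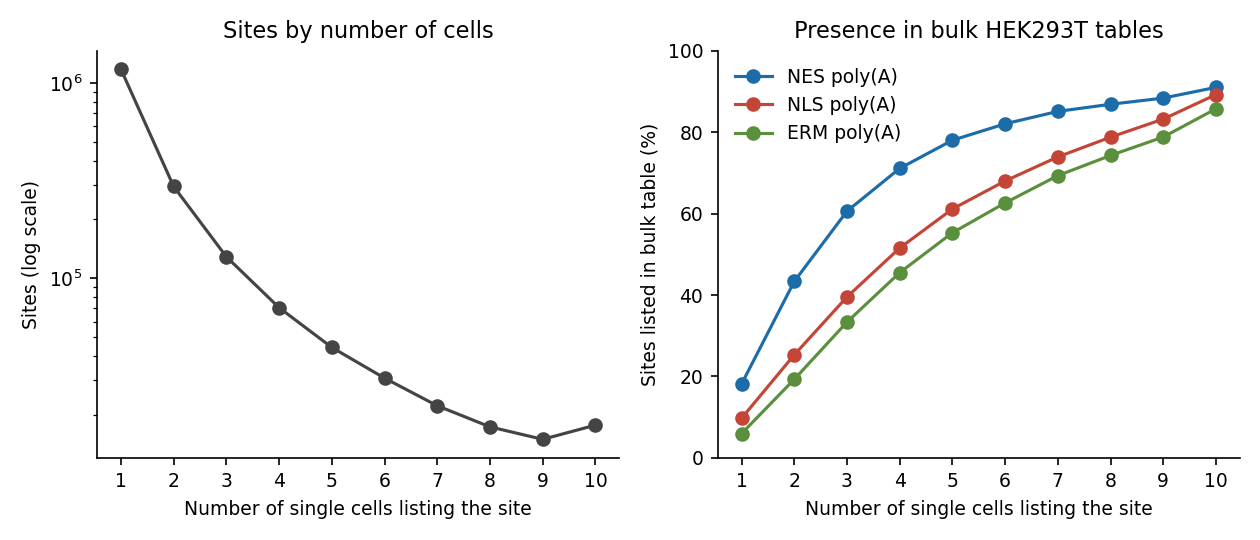
Left, the number of positions (log axis) by the number of single cells that list them; right, the percent of those positions listed in the bulk HEK293T NES, NLS and ERM poly(A) tables. Positions of 10 cells number 17669, and 91.0% of them are in the NES table against 18.1% of the positions of 1 cell.

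Chaperone genes led by number of core sites, a number that depends on depth and on the RNA being present in every cell. HSP90AA1, the inducible cytosolic HSP90, held 545 core sites, and DNAJB1, an HSP40 co-chaperone, held 354. HSP90AB1, the constitutive HSP90, held 275, and all 275 also stood under the name POLR1C (278), although they lie outside the RefSeq interval of POLR1C, so those 2 names cannot be told apart. HSPD1, the mitochondrial chaperonin HSP60, held 254, HSPA6, a strictly inducible HSP70, 222, and RNR2, the large mitochondrial ribosomal RNA, 214. Of these core sites, bulk NES listed 534 in HSP90AA1 but 84 in HSPA6 and 7 in RNR2. The 8 names with most core sites took 11.8% of all core sites and the 50 with most took 34.1%. In contrast, 348 names had a single core site and the median was 4.

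Core sites were dense: the median distance to the nearest other core site was 9 bases. The lists used for grouping held 2853 core sites in 20 of 21 cytosolic chaperone genes, 2383 in 82 cytosolic ribosomal protein genes, 596 in RNA-binding and nucleolar protein genes, 563 in all 10 glycolysis genes, 401 in 16 of 18 translation factor genes, 306 in cytoskeleton genes, 203 in ER and secretory genes and 377 in mitochondrially encoded RNAs. Markers checked the labelled lines. Of 6 genes chosen as HEK293T markers, the neurofilament genes NEFM and NEFL were listed in 8 cells, the transcription factors ZIC2, PAX2 and LHX1 in 5, 4 and 2, and LIN28B, an RNA-binding protein, in all 10. PAX2 and LHX1 had no site in the HEK293T bulk tables, and LIN28B was listed in K562 too. Of 12 erythroid genes that mark K562, HBA2 and KLF1 were listed in 1 cell each, 10 were listed in no cell, and all 12 had no listed site in the HEK293T bulk tables.

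Mean rates of the core sites over the 10 cells ran from 0.0227 to 100%, with a median of 11.5% and quartiles of 4.85 and 22.5%. The mean over core sites was 16.1% with an SD of 4.32 percentage points between cells. Averaged within each gene name before averaging over names, it was 29.4%, since names with few core sites had higher ones. The median over core sites was lowest in cell 1 (3.33%) and highest in cell 6 (12.3%). Cell 1 was the lowest cell at 26.2% of core sites, and cell 4 was the highest at 22.5%.

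**Figure D2:**
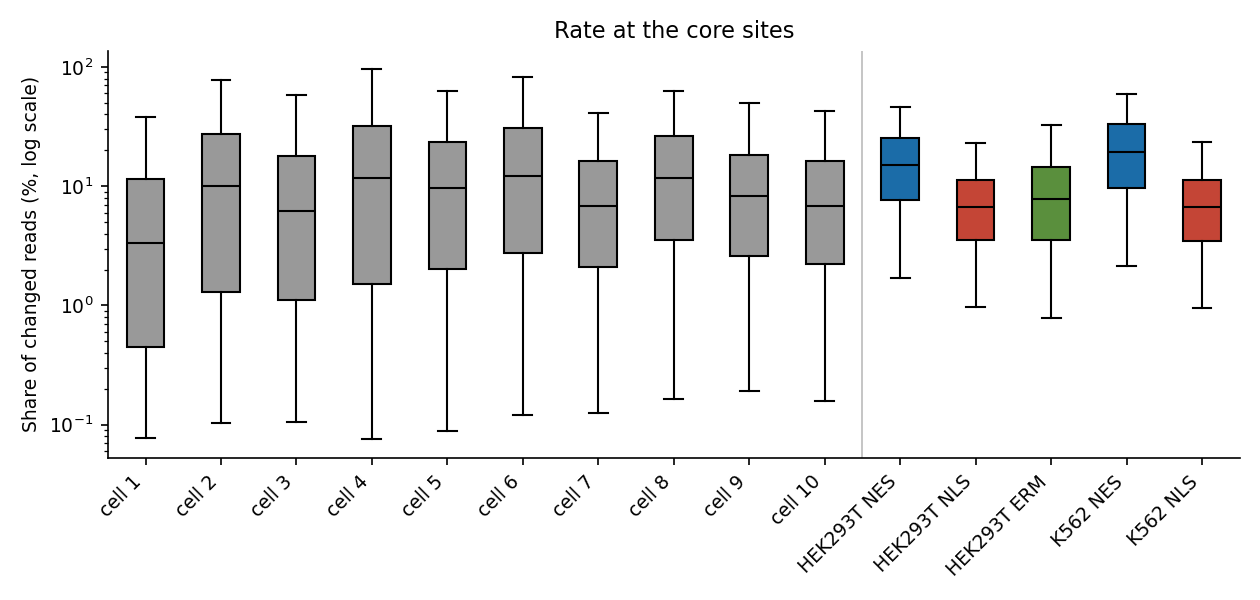
Rates at core sites (percent of reads changed, log axis) in the 10 single cells (grey) and, where listed, as the mean of 2 libraries in each bulk table (coloured). Boxes give quartiles and median and whiskers the 5th and 95th percentile; cell medians lie between 3.33 and 12.3%, and the bulk NES median is 15.1% against 6.73% for NLS.

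A single site varied widely from cell to cell. The median SD over cells was 8.49 percentage points and the median coefficient of variation (SD divided by mean) was 0.773. The highest cell exceeded the lowest by a median of 51.5-fold, and by more than 100-fold at 34.6% of core sites. The coefficient of variation was 0.916 at core sites with a mean of 1 to 5% and 0.492 at those with a mean of 50 to 95%. Depth per cell is unknown, so counting noise and differences between cells cannot be told apart.

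The largest coefficients of variation among core sites with a mean of at least 10% came from single cells at 74.0 to 98.2%. At RBBP4, a histone-binding chromatin protein (chr1:32668379), the cells had a lowest rate of 0.0832%, a median of 0.644%, a second highest of 8.73% and a highest of 98.2%. At BCAS2, a splicing factor (chr1:114567636), the median was 1.93% and the highest cell was at 92.8%, and at PPA1, a pyrophosphatase (chr10:70203156), they were 3.18 and 96.6%. CACYBP (chr1:175010736), UBE2A (chrX:119583340) and RNF138 (chr18:32130088) had medians of 2.63, 1.24 and 3.17% and highest cells at 94.9, 74.0 and 97.5%. In the bulk NES libraries these 6 sites were between 1.27 (RBBP4) and 21.5% (RNF138).

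At the other extreme, 62 core sites had a mean of at least 95%, and none of them was listed in a HEK293T bulk table, although core sites with a mean of 50 to 95% were listed in bulk NES at 91.5%. The rate was 100% in all 10 cells at 8 of them, in TSPAN31 (chr12:57749452), KLHDC8A (chr1:205351469), RAB3GAP2 (chr1:220254487), WDPCP (chr2:63604874), MAP3K13 (chr3:185417872), SLU7 (chr5:160407815), PPIL4 (chr6:149541061) and SSBP1 (chr7:141745494). A bulk table lists only sites that the authors' adjusted p-value separated from the control, and no control rate was used here.

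The lowest rates were those of RNA made inside mitochondria, which have their own genome and transcription machinery. The 377 core sites on the mitochondrial genome had a median of 0.0696%, and the median per cell stayed between 0.0577 and 0.0710%, a far narrower range than over all core sites. With no control rate used, change by the enzyme and sequencing error cannot be told apart at rates this low. RNR2 had medians of 0.0594 to 0.0731% over the cells and COX1, a subunit of cytochrome oxidase with 80 core sites, 0.0351 to 0.0439%. The 6 lowest core sites were 4 in COX1 and 2 in RNR2, with means of 0.0227 to 0.0263%. Of the 377, 11 were listed in bulk NES. Core sites under 1% in the cells numbered 1279, and 46.5% of these were listed in bulk NES.

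MALAT1, a nuclear-retained long noncoding RNA, had 19 core sites. Its median over them was 0.171% in the lowest cell, 0.368% in the middle and 3.86% in cell 1, the highest. None was listed with NES or ERM in bulk HEK293T, and 13 were listed with NLS, at medians of 21.7 and 22.8%. In K562, 6 of the 19 were listed with NES, at medians of 3.41 and 6.18%, and 14 with NLS, at 31.1 and 33.7%. Rates of MALAT1 were thus high at the sites listed with NLS and low in most NES cells. With no control rate used, change by the enzyme and sequencing error cannot be told apart in those cells. The cytoplasmic noncoding RNAs were at the other end. GAS5, host of many small nucleolar RNAs, had medians of 15.8 to 68.0% over the cells, with 31.4 and 30.4% in bulk NES against 12.3 and 12.4% with NLS. ZFAS1 had 30.5 and 32.2% with NES, 14.3% in both NLS libraries and 22.2 and 22.4% with ERM, and its cells ranged from 2.16 to 50.7%.

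**Figure D3:**
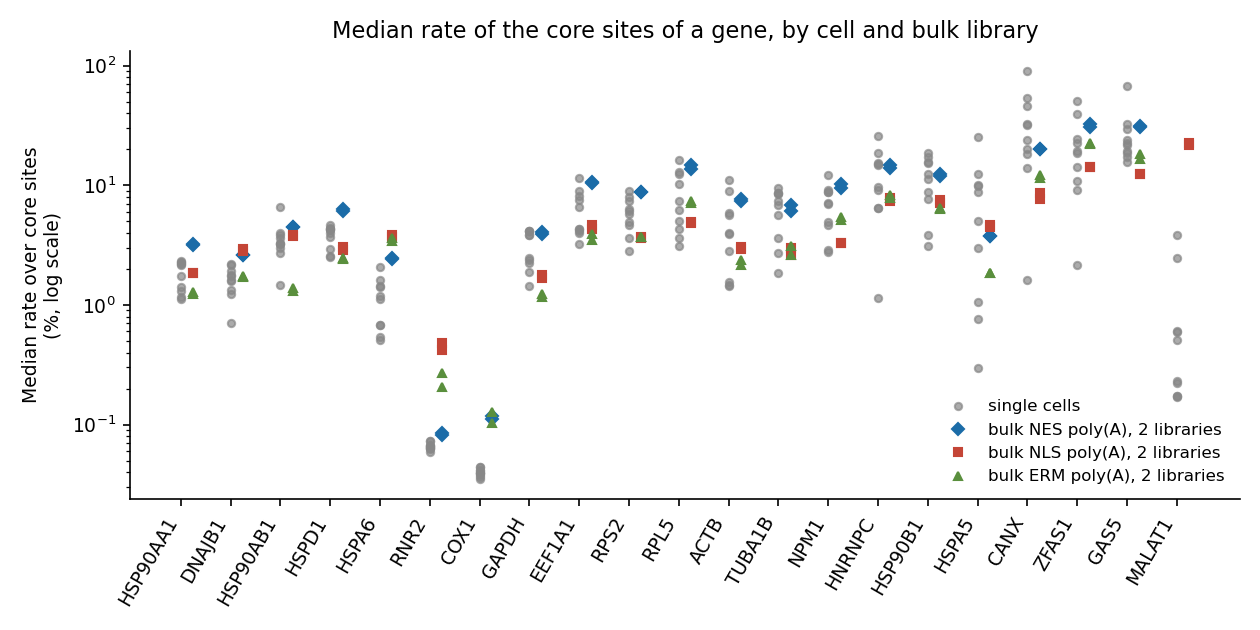
Median rate over the core sites of a gene (percent, log axis) in each single cell (grey points) and in the 2 bulk libraries of NES, NLS and ERM (coloured), over those listed there. Cells of RNR2 lie between 0.0594 and 0.0731% while those of CANX run from 1.61 to 89.9%, and MALAT1 has bulk values with NLS alone.

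Rates in the cells followed those in bulk. Spearman's rho between the mean over cells and the bulk rate was 0.910 for NES (16080 sites), 0.883 for ERM and 0.754 for NLS, and 0.898 for NES in K562. Single cells reached 0.490 (cell 1) to 0.830 (cell 9) against bulk NES. These values run across sites that share genes and libraries and are a description. The cells lay below bulk NES by a mean of 1.80 percentage points, below both libraries at 65.2% of sites and above both at 25.4%. When sites were averaged within genes, the cells lay 1.88 points above.

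In bulk, core sites were high with NES and ordinary with NLS. The median was 15.1% in both NES libraries, against 8.68% over all 907935 NES sites. With NLS the medians were 6.60 and 6.78%, against 6.74% over all NLS sites, and with ERM 7.93 and 7.68%, against 6.78%. In K562 the NES libraries had medians of 19.3% both and the NLS libraries 6.71 and 6.67%. Of 14714 core sites listed in all 3 HEK293T tables, NES was the highest construct at 92.2%, NLS at 7.12% and ERM at 0.720%. The sites were chosen in cells carrying NES, which favours sites changed with NES, and RNA level per construct was not measured by these rates. A bulk rate averages over cells, so fewer changed cells and fewer changed copies per cell cannot be told apart.

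NES was compared with NLS at 15484 core sites listed in both tables, in a limma fit over all 443249 shared sites with Benjamini-Hochberg adjustment. NES libraries were higher by a median of 0.45 log2 over all shared sites, on the log2(fraction + 0.01) scale, and differences are given relative to that. Then 5640 core sites were higher with NES (36.4%, against 12.3% of all shared sites) and 818 lower (5.28%, against 11.5%), and the median of the core sites was 0.54. Without that centring, 10546 were higher (all sites 32.8%) and 293 lower (all sites 4.45%). Libraries of the constructs did not overlap, with NES above, at 71.5% of core sites (all shared sites 33.9%), and with NLS above at 17.3% (32.2%), and as deposited these shares were 87.8% (56.4%) and 6.56% (13.9%).

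Calls rested on both NLS libraries: without NLS replicate 1 or 2, no core site was called in limma, with 6434 and 6331 higher and 890 and 935 lower at an unadjusted p under 0.05, so every call of NES against NLS named below is lost too. Without an NES library, 2698 and 2746 were higher and 465 and 454 lower. With only sites of all 3 constructs, which move the centre to 0.72 log2, 3868 were higher and 1287 lower, and with a mean rate of at least 5%, 476 were lower.

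Of 647 names with at least 5 tested core sites, 585 had a median above the centre and 62 below. Site by site, 78.0% of the tested core sites lay above it. The share over genes of all shared sites was not computed, so the counts of names have no background. With only sites of all 3 constructs, the median of the core sites was 0.31 in place of 0.54.

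Ribosomal protein mRNAs, which encode the subunits of the cytosolic ribosome, had 1198 of 2188 tested core sites higher with NES and 22 lower, with a median difference of 0.82. Over these sites the medians were 13.1 and 12.9% with NES and 4.61 and 4.67% with NLS. RPS18 had 39 of 59 higher and none lower, at 7.12 and 7.17% against 2.03 and 1.83%. RPL5 had 34 of 58 higher and none lower, which became 31 and 3 with only sites of all 3 constructs. RPS2 had 31 of 74 higher and 3 lower, and RACK1, a scaffold protein on the small subunit, 28 of 77 higher and 3 lower. Ribosomal protein genes, like EEF1A1, GAPDH and NPM1, have many processed pseudogenes, so reads could be split between copies.

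Translation factors had 194 of 365 higher (53.2%) and 19 lower (5.21%). EIF1, which helps select the start codon, had 30 of 56 higher and 2 lower, EEF1G 23 of 46 and none, and EEF1B2, a nucleotide exchange factor, 20 of 33 and none. The lower ones included 12 sites of EEF1A1, the factor that brings aminoacyl-tRNA to the ribosome, described below. Cytoskeleton mRNAs had 118 of 269 higher (43.9%) and 7 lower (2.60%). ACTB had 28 of 71 and 4, TUBA1B 18 of 50 and none, PFN1 22 of 42 and 1, and CFL1 15 of 29 and none. With only sites of all 3 constructs, TUBA1B had 12 higher and 4 lower and CFL1 9 and none. Glycolysis mRNAs had 147 of 503 higher (29.2%, below the share over core sites) and 7 lower (1.39%). LDHB had 31 of 77 and 1, and GAPDH 27 of 128 and 2, which became 16 and 7 with only sites of all 3 constructs. ENO1 had 22 of 76 and 2, and LDHA 17 of 66 and 1.

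RNA-binding and nucleolar protein mRNAs had 171 of 554 higher (30.9%, below the share over core sites) and 25 lower (4.51%). NPM1, a nucleolar chaperone, had 54 of 80 higher and none lower, at 9.57 and 10.3% with NES against 3.28 and 3.32% with NLS. HNRNPA2B1 had 11 of 70 higher and 7 lower, which became 7 and 16 with only sites of all 3 constructs and 27 and 3 uncentred. HNRNPC had 20 of 53 higher and 1 lower. RAN, the small GTPase of nuclear transport, had 6 of 48 higher (12.5%, near the share over all shared sites) and 3 lower. Cytoplasmic long noncoding RNAs had 13 of 22 higher and none lower. In the list of mRNAs with sites of the ADAR enzymes, adenosine deaminases that human cells make, only 2 of 12 genes had core sites. PSMB2 had 3 of 8 higher and none lower, and the whole list 3 of 9. Whether these core sites are ADAR sites was not checked.

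**Figure D4:**
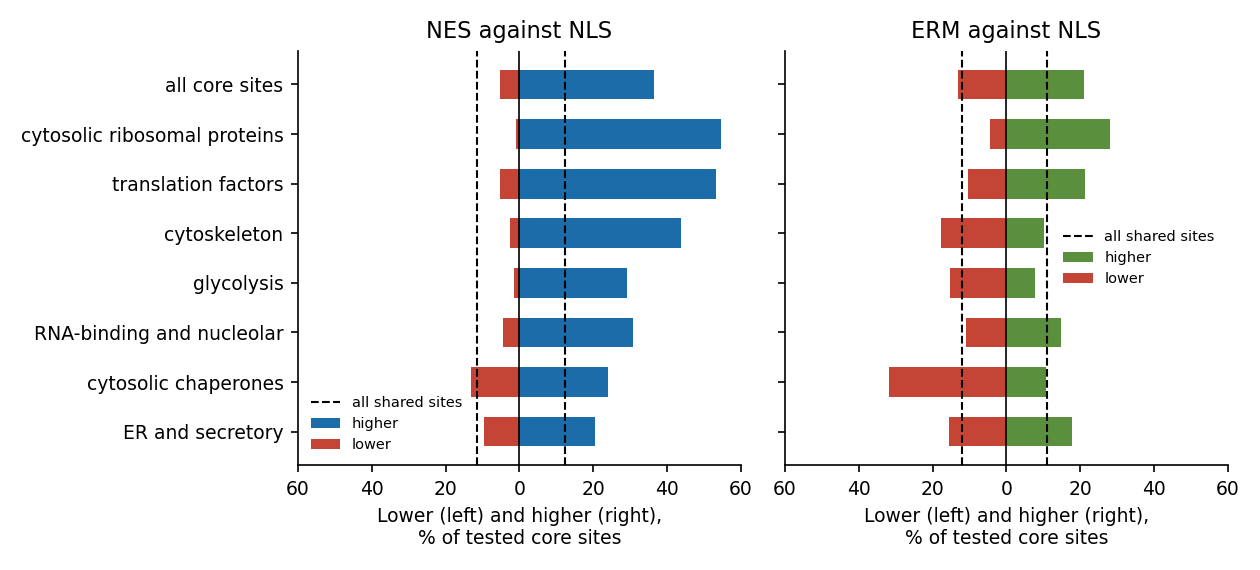
Percent of tested core sites called higher (right) and lower (left) by limma at an adjusted p under 0.05, by gene list and over all core sites, for NES against NLS and ERM against NLS; dashed lines mark the shares over all shared sites. Ribosomal proteins have 54.8% higher with NES against NLS, and cytosolic chaperones have 24.0% higher and 13.0% lower, a direction that turns to 436 against 460 sites with only sites of all 3 constructs.

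Core sites of all genes with a mean of 1 to 5% in the cells had 17.7% higher with NES and 11.7% lower. Those with a mean of 20 to 50% had 55.2% and 1.54%. The part of rate in the counts by list was not tested. The list of cytosolic chaperones had a median of 4.50% in the cells. It had 625 of 2599 higher with NES (24.0%, below the share over core sites) and 339 lower (13.0%). These became 436 and 460 with only sites of all 3 constructs, and 1409 and 107 uncentred. HSPA6, which was not on that list, had 84 core sites in both tables, of which none was higher with NES and 73 were lower. Over these sites it had 2.49 and 2.41% with NES against 6.76 and 7.20% with NLS, and uncentred it had none higher and 55 lower. Of its 222 core sites, these 84 were listed with NES, 149 with NLS and 5 with NES in K562. HSPA6 and HSPA1B resemble other HSP70 genes, so reads could be split between copies.

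HSPA1B, an inducible HSP70 nearly identical to HSPA1A and named after its values were seen, had 58 of 102 lower and none higher, at 2.10% in both NES libraries against 3.26 and 3.54% with NLS. Uncentred, 6 were higher and 28 lower. DNAJB1 had 6 of 287 higher and 124 lower, but uncentred 34 and 38, with a median difference of 0.01. HSP90AB1 had 13 of 258 higher and 51 lower, and uncentred 72 and 20. For HSP90AB1 and the median of DNAJB1 the direction therefore depends on the centre.

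HSP90AA1 had 86 of 515 higher and 44 lower, at 3.33 and 3.39% with NES against 1.80 and 1.82% with NLS, with 42 and 83 among sites of all 3 constructs only, and 306 and 4 uncentred, so its direction depends on the centre. HSPD1, on the list although its protein works in mitochondria, had 70 of 230 higher and 12 lower, with 48 and 21 among sites of all 3 constructs and 171 and 4 uncentred. HSPA4, an HSP110-family exchange factor not on the list, had 69 of 79 higher and none lower, with a median difference of 1.49, and CCT3, a subunit of the cytosolic chaperonin, had 52 of 74 and 1; both were named after their values were seen. HSPA4 had 21.3 and 21.9% with NES against 5.27% in both NLS libraries, and its cells ranged from 0.633 (cell 1) to 16.1%.

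The ER and secretory list had 39 of 190 core sites higher with NES (20.5%, below the share over core sites) and 18 lower (9.47%). It had 23 and 23 among sites of all 3 constructs and 109 and 7 uncentred. HSPA5, the ER chaperone BiP, had all 18 of the lower sites and 1 higher of 36 (uncentred 7 lower and 5 higher), at 3.79 and 3.76% with NES against 4.51 and 4.66% with NLS. HSP90B1, the ER form of HSP90, had 8 of 44 higher and none lower, and SLC3A2, a membrane transporter subunit, 6 of 34 and none. CANX, the ER lectin calnexin, had 13 of 29 and none. With only sites of all 3 constructs, HSP90B1 had 4 and 2, SLC3A2 4 and 1, and CANX 9 and none. CANX had 20.1 and 20.2% with NES, 7.66 and 8.54% with NLS and 12.2 and 11.6% with ERM.

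Among the 5 largest differences at single core sites with NES higher were those at HSPA4, FKBP4, GMPS and FARSA. The HSPA4 site (chr5:133073256) had 31.2 and 32.8% with NES, 1.77 and 1.99% with NLS and 8.31 and 7.52% with ERM, a difference of 3.07 ± 0.23 (SE) between NES and NLS with an adjusted p of 0.0109 in limma. In the cells it had a lowest rate of 0.734%, a median of 20.8% and a highest of 55.6%. FKBP4, a co-chaperone of HSP90 (chr12:2799939), had 35.4 and 34.0% with NES against 2.15 and 2.27% with NLS. GMPS, the GMP synthetase (chr3:155906199), had 47.7 and 48.5% against 4.60 and 2.51%, and FARSA, a subunit of phenylalanyl-tRNA synthetase (chr19:12928788), 42.0 and 38.1% against 3.76 and 2.66%.

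The largest differences in the other direction were in NXF1, EEF1A1, SELENOK and HSPA6. NXF1, the main mRNA export receptor (chr11:62792438), had 3.84 and 3.95% with NES against 24.6 and 24.7% with NLS, a limma difference of -2.84 ± 0.23 (SE) with an adjusted p of 0.0109, and was not listed with ERM. SELENOK, an ER selenoprotein (chr3:53885455), had 1.96 and 2.00% against 12.9 and 11.1%, and HSPA6 (chr1:161524979) 2.13 and 1.74% against 11.1 and 12.3%. EEF1A1 had 2 of the 5, at chr6:73520488 with 5.86 and 7.19% against 35.7 and 35.3%, and at chr6:73520652 with 4.24 and 4.25% against 22.4 and 21.7%.

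Along EEF1A1 (RefSeq chr6:73515750-73521032, minus strand) the core sites fell into 2 blocks, a split made after the values were seen. The 12 core sites from base 126 to base 640 of the gene were all lower with NES, with differences between -2.74 and -1.14 and a median of -2.16. The 85 core sites from base 987 to 3509 had 82 tested, of which 48 were higher and none lower, with a median of 0.88. Uncentred, the early block kept 12 lower and none higher, and the later block had 77 higher. Exon boundaries were not used here, so whether the early block lies in an intron or in the spliced mRNA was not determined.

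In the early block the medians were 27.8 and 27.3% with NLS, 8.11 and 8.39% with NES and 3.17 and 2.96% with ERM. In the later block they were 3.82 and 4.05% with NLS, 10.9 and 11.1% with NES and 4.17 and 3.91% with ERM. K562 had 20.8 and 20.9% with NLS against 11.1 and 11.3% with NES in the early block, and 3.04 and 2.83% against 14.7 and 15.2% in the later one. The single cells with NES had medians from 0.594 to 17.1% in the early block and from 3.15 to 15.5% in the later one.

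**Figure D5:**
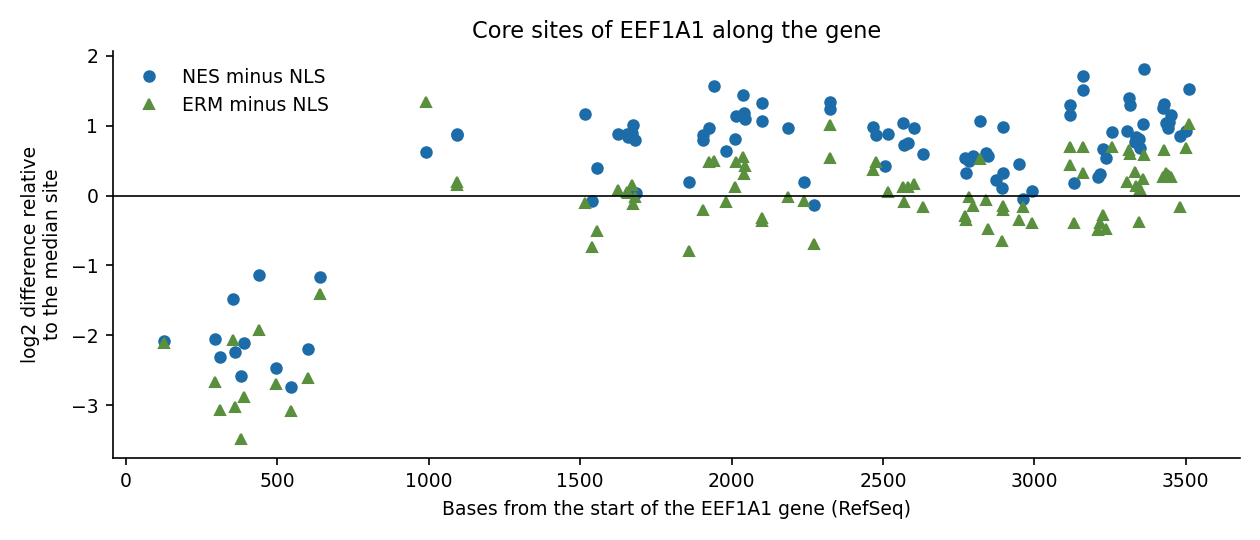
Differences at the core sites of EEF1A1 (log2 scale, relative to the median shared site) against distance from the start of the RefSeq gene, for NES minus NLS (circles) and ERM minus NLS (triangles). All 12 sites up to base 640 lie below 0 in both comparisons, and the later sites have medians of 0.88 and 0.10.

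ERM was compared with NES at 14974 core sites out of 356643 shared sites, and with NLS at 14866 out of 276293. The comparisons share libraries, so each is given on its own. ERM was lower than NES by a median of 0.72 log2 over all shared sites. Relative to that, limma called no core site (0% of all shared sites in each direction), with 783 higher and 2563 lower at an unadjusted p under 0.05 and a median of the core sites of -0.16. As deposited, 4 core sites were higher (all sites 0.288%) and 10989 lower (73.4%, all sites 46.1%). ERM libraries did not overlap with NES after centring at 21.8% of core sites with ERM above (all sites 24.8%) and at 51.2% with ERM below (26.5%).

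Against NLS, 3118 core sites were higher with ERM (21.0%, against 10.9% of all shared sites) and 1961 lower (13.2%, against 12%), with a median of 0.17 and a shift of all sites of -0.04. Without 1 of the 4 libraries, 918 to 1388 were higher and 605 to 938 lower, and among sites with a mean rate of at least 5%, 985 were lower. Ribosomal protein mRNAs had 606 of 2157 higher and 95 lower, and RPL5 33 of 61 and 3. Translation factors had 77 of 361 higher (21.3%, near the share over core sites) and 38 lower. Core sites of all genes with a mean of 1 to 5% in the cells had 5.60% higher and 33.0% lower. Those with a mean of 20 to 50% had 37.9% and 4.07%. The part of rate in the counts by list was not tested. The chaperone list, at a median of 4.50% in the cells, had 257 of 2402 higher (10.7%) and 767 lower (31.9%). By gene, HSP90AA1 had 9 and 177 of 461, HSP90AB1 1 and 176 of 239, and DNAJB1 1 and 126 of 213. Outside that list, HSPA6 had none and 38 of 45. Glycolysis mRNAs had 38 of 489 higher (7.77%) and 75 lower (15.3%), and cytoskeleton mRNAs 26 of 253 (10.3%) and 45 (17.8%). The ER and secretory list had 32 of 179 higher (17.9%) and 28 lower (15.6%), with CANX at 12 of 29 and none and HSPA5 at 1 and 20 of 28.

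All 5 core sites with the largest drop from NLS to ERM lay in the early block of EEF1A1, at positions 73520652, 73520488, 73520724, 73520672 and 73520644. At the leading one ERM had 1.06 and 0.933% against 22.4 and 21.7% with NLS, a limma difference of -3.49 ± 0.24 (SE) with an adjusted p of 0.0073. Among the 5 largest rises were those in FARSA, COPS3, a subunit of the COP9 signalosome, GMPS and EEF1E1. The FARSA site had 35.1 and 29.1% with ERM, and the COPS3 site (chr17:17248930) had 36.9 and 38.2% against 5.82 and 3.61% with NLS. The EEF1E1 site (chr6:8097309), also named under a readthrough gene, had 35.5 and 33.2% against 5.26 and 3.86%.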

How the data were processed

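The rates are the fraction of changed reads per site, as deposited by the authors for each single cell and each bulk poly(A) library; no read counts stand beside them. The bulk tables also give the authors' adjusted p-value, which was under 0.05 at every listed site. Per the submitters' processing notes, cutadapt, STAR, Bowtie2 and SAMtools were used, with build hg38; for site calling, tools and filters were not given in the sources used here. For the cells, SMART-Seq v4 stands in the protocol and Smart-seq2 in the titles. Such libraries do not mark strand, so unchanged reads of overlapping antisense genes cannot be told apart in the cells and may enter a rate.

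A site was a chromosome, position and strand; repeated rows under several gene names were joined. Sites were kept when all 10 cells listed them. Any pair of cells had identical rates below 100% at no more than 0.032% of its shared sites, so no library was counted more than once. Bulk constructs were tested with limma (version 3.58.1, run in R 4.3.3) on log2(fraction + 0.01), centred on the median site, with a variance trend, two-sided, Benjamini-Hochberg over all shared sites and a threshold of 0.05; the script was tested on simulated data. Alternatives were the centring, the pseudocount (0.001), a logit scale, a minimum mean rate of 5%, no trend, sites of all 3 constructs, a replicate block and leaving out each library or cell.

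Sequences come from RefSeq (GRCh38.p14) windows of 250 bases before to 50 after gene starts and from miRNA hairpins. Members and lists were chosen with earlier results of these data known. Named are the 8 genes with most sites, up to 4 genes per list by number of sites, the sites of highest and lowest mean and of largest and smallest variation, and the 5 largest called differences per direction without overlap. Some genes that this rule names are not reported here. Mitochondrial RNAs were taken by chromosome. In the tables used, 5 columns of authors' means were not used.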

Additional observations from a re-analysis of the deposited data

Results flagged for a closer look

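Among per-cell values of named genes, lists and sites, the highest or lowest cell was flagged by Dixon's 95% critical value. That value applies to its gap to the next cell relative to the range of the 10 cells. Normally distributed values exceed it in about 1 in 20 groups. Cell rates are bounded at 0 and spread over many fold, so that share need not hold here. Of 82 sets of cell values, 16 had such a cell, always the highest. By gene median these were HSP90AB1 at 6.53% and POLR1C at 6.54%, which share their sites, HSPA5 at 25.2%, COX3, a mitochondrial cytochrome oxidase subunit, at 0.0969%, GAS5 at 68.0% and SNHG8 at 96.4%. By single site, those chosen for a large variation were RBBP4 at 98.2%, BCAS2 at 92.8%, PPA1 at 96.6%, CACYBP at 94.9%, UBE2A at 74.0% and RNF138 at 97.5%, for which a stray cell is part of the choice. The others were a COX1 site at 0.0446%, a SELENOK site at 9.95%, an HSPA6 site at 6.90% and an EEF1A1 site (position 73520672) at 49.8%. Depth in these cells is unknown.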

How the results depend on the processing

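For NES against NLS, no centring gave 10546 sites higher and 293 lower in place of 5640 and 818; a mean rate of at least 5% gave 476 lower and sites of all 3 constructs 1287 lower, and leaving out a library gave 0 to 2746 higher and 0 to 465 lower. For ERM against NES, no centring gave 4 higher and 10989 lower in place of 0 and 0, and leaving out a library gave 0 in both directions. For ERM against NLS, a mean rate of at least 5% gave 985 lower in place of 1961, and leaving out a library gave 918 to 1388 higher and 605 to 938 lower. The cause was not tested, except that fewer libraries or sites enter by construction. Replicate numbers did not pair the libraries (correlations of deviations 0.0047, 0.0010 and 0.0026); with a replicate block 4934 were higher and 698 lower for NES against NLS, 2849 and 1781 for ERM against NLS, and 0 for ERM against NES.

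Listing in at least 9 cells gave 32616 sites; a rate of at least 5% in every cell gave 2708 sites under 733 names; leaving out a cell gave 18110 to 23786 sites under 1491 to 1791 names. The mean over cells was 11.5% as a median over sites and 29.4% within genes, and the difference from bulk NES turned from -1.80 to 1.88 points within genes. Leaving out a cell gave 15.4 to 16.8% for the mean and -2.51 to -1.005 points (without cell 1) for that difference. The share with U before the site was 10.6 points below that of bulk NES sites, also with 1 site per gene, and 2.81 points below it in genes with a core site. The 20 named site differences stayed past the threshold in all 137 alternatives other than a left out library, and in 60 of 80 with one left out. Restricting to sites with a cell mean of at least 1%, an alternative chosen after seeing the data, moved no count by over 1.5 times. Depth behind the single-cell rates is unknown.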
